A study of Homo sapiens with 2 samples.

Results

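PITPNM2 was the protein-coding gene with most peaks in a ChIP-seq list made to find where the transcription factor ERG sits on chromatin. It lies on the minus strand of chromosome 12 (hg38, 122983480 to 123151848, 168.4 kb). Its peaks were taken as those with the summit in the gene or within 10 kb of it, which gave 4 of the 1645 peaks in the list. The gene was chosen by its number of peaks in this list, so that number and the peaks' values are given as a description with no test. PITPNM1 and PITPNM3, the other members of its family, had 0 peaks by the same measure. Of the 4 peaks counted for PITPNM2, 2 were inside the gene. The other 2 lay past its downstream end, at the starts of its neighbours ARL6IP4, OGFOD2 and ABCB9.

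The cells were F36P, a human erythroleukaemia line. They carried either a retroviral MSCV-PIG-AM-ERG vector, in which ERG is joined to an AM tag (AM-ERG, labelled ERG overexpression), or the same MSCV-PIG vector without ERG (Vector, labelled WT). Puromycin at 1 µg/ml was applied for 4 days to select either kind of cell. Both kinds were fixed with 1% formaldehyde, and their chromatin was cut with micrococcal nuclease for 20 minutes. For each, 10 µl of an antibody to the tag was used for the pull-down from 10 µg of chromatin. In the AM-ERG cells ERG was thus overexpressed and tagged, while the vector of the Vector cells held no ERG. The labels list 1 library per group and 1 peak list was analysed, so no value has a replicate error and AM-ERG could not be tested against Vector. The sources used here do not say on which library the list was called.

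PITPNM proteins, also called Nir or RdgB proteins after the Drosophila retinal degeneration gene, handle phosphatidylinositol, the lipid from which signalling phosphoinositides are made. When phospholipase C consumes phosphoinositides at the plasma membrane, PITPNM1 (Nir2) and PITPNM2 (Nir3) move to contacts between the endoplasmic reticulum and the plasma membrane. There they carry phosphatidylinositol outward and phosphatidic acid back, held to the endoplasmic reticulum by VAP proteins. PITPNM3 (Nir1) lacks the lipid transfer domain of the others. ERG is an ETS factor, and ETS factors bind DNA with a GGAA core.

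RefSeq sequences on GRCh38.p14 were set beside the peaks, to show what lay under the peaks past the downstream end of PITPNM2 and what PITPNM2's own starts, which had no peak, hold. Each runs 5′ to 3′ in the direction of the named gene, with GGAA on either strand (GGAA or TTCC) in capitals. The first 2 are 300-base windows from 250 bases before to 50 after the upstream and the downstream listed start of PITPNM2 (chr12:123151041-123151340 and chr12:123105467-123105766, minus strand). The third is the same window of ARL6IP4 (chr12:122980431-122980730, plus strand), all of which lay under a peak. The fourth is a window of ABCB9 (chr12:122974520-122974819, minus strand), which ended 4 bp short of the farthest peak. The last is the 137-base part of an OGFOD2 window that lay under that peak (chr12:122974994-122975130, plus strand); it stops short of the listed start of that window. Neither the fourth nor the last holds the summit of the farthest peak.
PITPNM2 upstream start: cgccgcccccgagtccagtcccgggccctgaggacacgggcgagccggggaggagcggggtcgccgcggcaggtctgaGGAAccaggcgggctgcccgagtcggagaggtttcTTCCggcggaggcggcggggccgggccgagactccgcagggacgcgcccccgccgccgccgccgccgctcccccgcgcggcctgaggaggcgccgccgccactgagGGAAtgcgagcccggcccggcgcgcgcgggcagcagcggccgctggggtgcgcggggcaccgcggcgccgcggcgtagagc
PITPNM2 downstream start: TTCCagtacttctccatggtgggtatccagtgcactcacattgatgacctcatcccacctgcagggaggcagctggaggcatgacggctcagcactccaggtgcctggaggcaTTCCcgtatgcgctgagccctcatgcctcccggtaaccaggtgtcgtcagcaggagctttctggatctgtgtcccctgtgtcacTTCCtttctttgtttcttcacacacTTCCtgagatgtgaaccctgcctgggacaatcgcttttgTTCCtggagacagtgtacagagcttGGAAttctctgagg
ARL6IP4 start under the peak: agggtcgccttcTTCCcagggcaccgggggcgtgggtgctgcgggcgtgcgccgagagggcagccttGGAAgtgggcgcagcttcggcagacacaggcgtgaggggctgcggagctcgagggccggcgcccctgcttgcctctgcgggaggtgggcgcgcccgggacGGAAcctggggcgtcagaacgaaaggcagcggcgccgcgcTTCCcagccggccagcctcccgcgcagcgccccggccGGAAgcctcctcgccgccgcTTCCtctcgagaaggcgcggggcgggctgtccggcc
ABCB9 start beside the peak: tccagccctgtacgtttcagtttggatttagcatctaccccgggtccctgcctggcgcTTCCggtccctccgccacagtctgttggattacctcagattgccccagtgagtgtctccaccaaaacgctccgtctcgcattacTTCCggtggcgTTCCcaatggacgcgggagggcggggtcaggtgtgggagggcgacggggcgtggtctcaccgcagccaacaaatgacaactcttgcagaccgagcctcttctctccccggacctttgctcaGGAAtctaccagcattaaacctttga
OGFOD2 upstream stretch under the peak: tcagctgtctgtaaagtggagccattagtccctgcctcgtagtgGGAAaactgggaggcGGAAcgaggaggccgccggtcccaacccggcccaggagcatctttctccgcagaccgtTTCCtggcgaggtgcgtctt
No sequence was at hand for the 2 peaks inside PITPNM2.

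Inside the gene, the peak of highest fold lay deep in the gene body. It spanned 123033901 to 123034203 with its summit 117777 bp from the gene's upper-coordinate end, 70.0% of the way along the gene in the direction of transcription. Its fold enrichment, the authors' ratio of signal to local background at the summit, was 7.94, with a −log10 p of 20.3; the authors' deposited table gave a −log10 q of 15.3. From the fold and the p a pileup of 29 fragments over a local background of 2.78 fragments was recovered. The exact Poisson interval of that pileup (95%, counting error only) was 19.4 to 41.6 fragments, or a fold of 5.41 to 11.3 with the background held fixed. By fold the peak ranked 115 of the 1564 listed for chromosomes 1 to 22 and X. Among the 135 peaks that were inside a coding gene and over 1 kb from every listed coding start and gene end, chromosome 8 left out for want of listed starts here, it ranked 10 by fold and 9 by significance. Those 135 peaks had a median fold of 4.82. The listed coding start nearest to this summit was not one of PITPNM2. It belonged to ARL6IP4, 53.2 kb away, while the nearer PITPNM2 start was 71.4 kb away.

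The other peak inside the gene was near its second start. RefSeq lists an upstream start of PITPNM2 at 123151090 and a downstream one at 123105516, and the peak (123107210 to 123107518) had its summit 1918 bp upstream of the downstream one. Its fold was 4.79, with a −log10 p of 7.75 and, in the authors' deposited table, a −log10 q of 3.84. The pileup was 13 fragments (6.92 to 22.2, fold 2.71 to 7.96) over a background of 1.92. This background was the lowest in the list, shared by 135 peaks on chromosomes 1 to 22 and X. The pileup was low among listed peaks, since 3.84% of them had a lower one, while 53.4% had a lower fold. It had the weakest significance of the 4, with 25.0% of peaks below it.

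Past the downstream end, the first peak (122980283 to 122980759) lay in ARL6IP4, which encodes a nuclear protein linked to splicing. Its summit was 2959 bp beyond the end of PITPNM2 and 160 bp from a listed ARL6IP4 start. The fold was 4.49 and the pileup 25 fragments (16.2 to 36.9, fold 2.97 to 6.55) over a background of 4.79, the highest background of the 4. This was also the widest of the 4 peaks, at 477 bp against 303 to 309 bp for the others.

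The farthest peak (122974824 to 122975130) lay where ABCB9 and OGFOD2 overlap head to head. ABCB9 encodes a lysosomal peptide transporter and OGFOD2 a protein with a 2-oxoglutarate and iron dependent oxygenase domain. Its summit was 8541 bp beyond the end of PITPNM2, 175 bp from a listed start of ABCB9 and 213 bp from one of OGFOD2. The fold was 5.65 and the pileup 20 fragments (12.2 to 30.9, fold 3.55 to 8.57) over a background of 2.72. It was the last peak inside the 10 kb limit. The next one out was 87.3 kb from the gene, with a fold of 4.59.

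**Figure D1:**
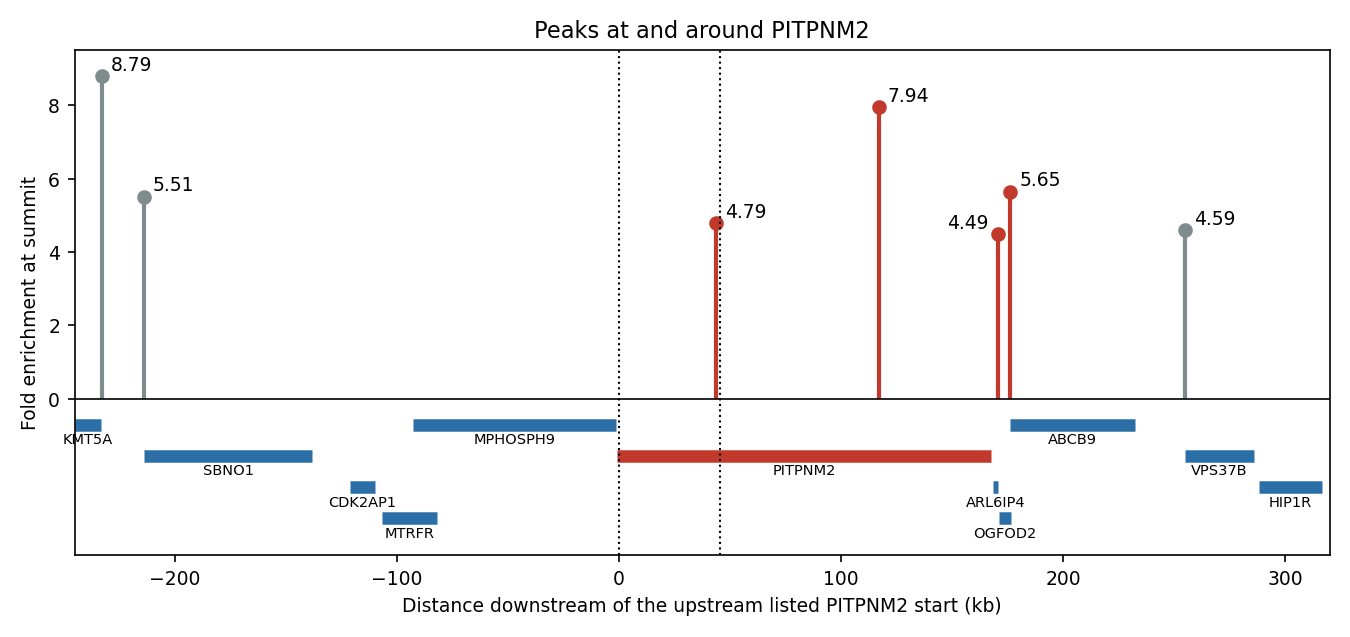
Listed peaks (lines with points, height the fold enrichment at the summit) against distance in kb downstream of the upstream listed PITPNM2 start, with coding genes as bars below and the 2 listed PITPNM2 starts as dotted lines; red marks PITPNM2 and the peaks counted for it, grey the other peaks. Of the 4 red peaks 2 stand over the gene, of fold 7.94 and 4.79, and 2 stand past its right end over ARL6IP4, OGFOD2 and ABCB9, of fold 4.49 and 5.65.

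Among themselves the 4 peaks ranged from 4.49 to 7.94 in fold (median 5.22), a ratio of 1.77 between the highest and the lowest, and all 4 intervals of the fold overlapped. Their median pileup was 22.5 fragments, against 21 fragments over the 1564 peaks, whose median fold was 4.66. The 4 backgrounds, 1.92 to 4.79 fragments, lay around the median of 3.52 for all peaks. The 2 peaks inside the gene held the highest fold and also the weakest significance. The 2 at neighbouring starts were closer to each other in fold, pileup and significance (−log10 p of 11.7 and 10.9).

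**Figure D2:**
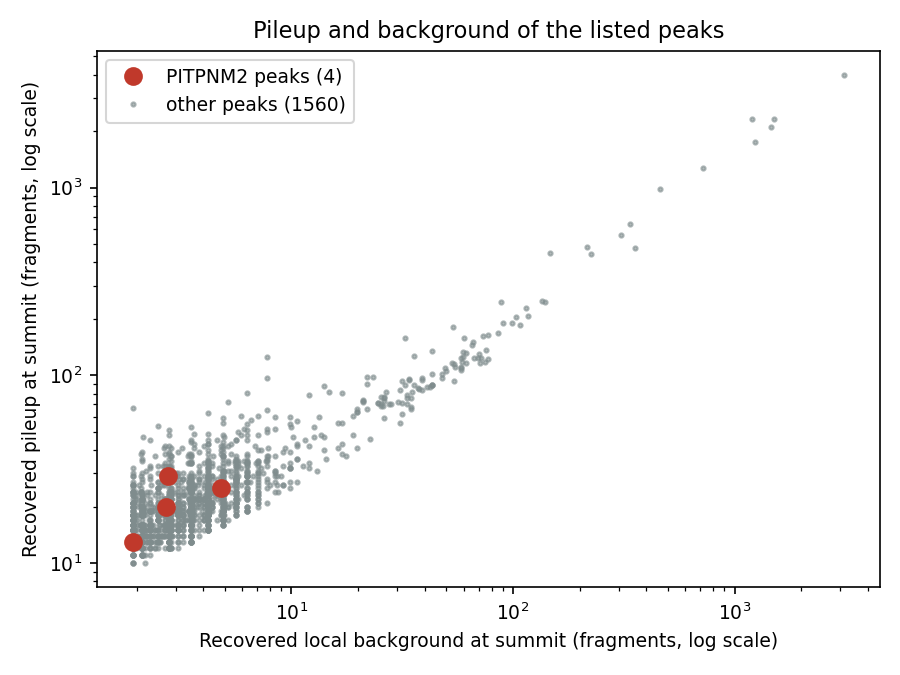
Recovered pileup at the summit against recovered local background, both in fragments on log axes, for the 4 peaks counted for PITPNM2 (red) and the other 1560 peaks on chromosomes 1 to 22 and X (grey). The red points sit at 13 to 29 fragments over backgrounds of 1.92 to 4.79, within the main cloud.

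The summits were unevenly spaced. From the farthest peak inward they were 5582, 53550 and 73363 bp apart. Close spacing follows from the choice of a gene by its number of peaks, so it is not set against that of other summits. The summits of the 4 peaks together spanned 132 kb. Above them the list was empty for 257614 bp, up to the peak near the start of SBNO1. That gap was shorter than the median spacing of neighbouring summits on chromosome 12, which was 519 kb. The empty interval holds the upstream start of PITPNM2, from which the nearest listed summit was 43.7 kb away. Inside the gene, PITPNM2-AS1, a long noncoding RNA gene, was 22.7 kb from the nearest summit and the microRNA gene MIR4304 23.3 kb.

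The sequences differed in base composition and in ETS letters. The window at the upstream PITPNM2 start was 82.0% G and C with 52 CG pairs, and that at the downstream start 54.7% with 6. The ARL6IP4 window under the peak was 76.3% with 39. The median of all 34961 promoter windows was 58.7%, and that of the 448 windows that held a summit was 68.7%. GGAA matched 3 times at the upstream and 6 times at the downstream start of PITPNM2, and 6 times in the ARL6IP4 window. This core was in 95.5% of all windows and so says little. The longer CCGGAA (either strand; each match also holds a GGAA) was in 17.3% of all windows and in 318 of the 448 with a summit (71.0%). The part of base composition in that difference was not tested.

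CCGGAA matched 1 time at the upstream start of PITPNM2, its TTCCGG letters beginning 137 bases before the start, and 0 times at the downstream start. It matched 1 time in the ARL6IP4 window, where the GGAA began 6 bases before the listed start and 155 bp from the summit. The GGAA nearest to that summit, 22 bp away, was not part of a CCGGAA. The OGFOD2 stretch under the farthest peak held 3 GGAA and 0 CCGGAA. The window of the ABCB9 start under that peak, with 66 of its 300 bases there, held 6 GGAA and 0 CCGGAA, while the printed ABCB9 window beside the peak held 2 CCGGAA. The CCGGAA at the upstream PITPNM2 start thus stood in a window with no peak. That was the usual case, since 318 of the 6032 windows with CCGGAA held a summit. The windows of PITPNM1 and PITPNM3 held 0. GATA, the core of the GATA factors' sites, matched 1 time at the downstream start of PITPNM2 and 0 times at the upstream start and in the ARL6IP4 window (49.6% of all windows). CANNTG, the E-box, matched 4 times at the downstream start (68.7% of all windows). Neither TGTGGT (RUNX, in 13.1% of all windows) nor TGACTCA (AP-1, in 4.92%) matched at either start. All motifs were searched on both strands. These are letters in windows, not tests of binding.

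The paralogs were set beside PITPNM2, which is 168.4 kb long and had 12 coding genes within 250 kb. PITPNM1, on chromosome 11 (67491768 to 67506266), is 14.5 kb long and had 25 coding genes within 250 kb. Its nearest peak was 203 kb away near the start of ANKRD13D, with a fold of 3.27, a pileup of 23 fragments and a background of 6.34. PITPNM3, on chromosome 17 (6451263 to 6556555), is 105.3 kb long and had 11 coding genes within 250 kb. Its nearest peak was 462 kb away, with a fold of 5.14, a pileup of 14 fragments and a background of 1.92. PITPNM2 had 4, 5 and 7 peaks within 50, 100 and 250 kb, PITPNM1 had 0, 0 and 1, and PITPNM3 had 0 at each distance. By the 10 kb measure 1913 of all 19970 coding genes (9.58%) had a peak, so a gene without one is the usual case. Sites too weak to be listed cannot be seen here. At the lowest background of 1.92 fragments the weakest listed peak had 10 fragments and a fold of 3.77.

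**Figure D3:**
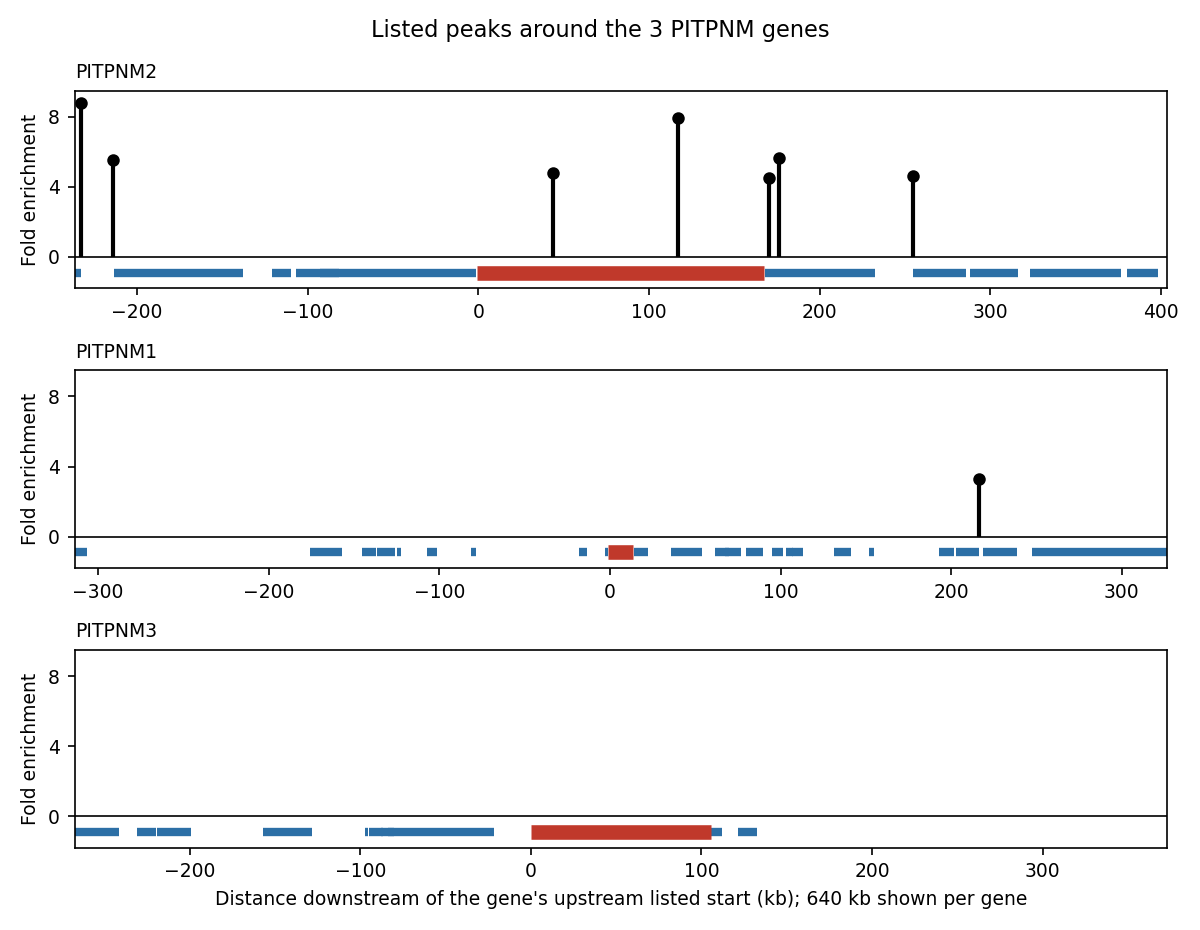
Fold enrichment of each listed peak (black lines) within 640 kb centred on PITPNM2, PITPNM1 and PITPNM3, against distance in kb downstream of the gene's upstream listed start, with the named gene in red and other coding genes in blue. PITPNM2 has 7 peaks in view, PITPNM1 has 1 of fold 3.27, and PITPNM3 has 0.

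The first place of PITPNM2 rested on the 10 kb window. Only 14 of the 19970 coding genes (0.0701%) had 3 or more peaks by that measure, and the 13 others had 3 each. Counting summits inside the gene alone, 28 genes (0.14%) had at least 2, PITPNM2 among them with 2 and MAML3 with 3. Among the 2353 coding genes of 100 to 250 kb, 205 (8.71%) had at least 1 peak by the 10 kb measure and 6 (0.255%) had at least 2 inside. Per 100 kb of gene and window, PITPNM2 had 2.12 peaks, and 1032 of the 19970 coding genes had as many or more. A short gene can reach that value with 1 peak. With each peak given only to the coding gene of the nearest listed start, a count chosen after seeing the data, PITPNM2 kept 1 peak, the one near its downstream start.

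PITPNM2 and the 13 other genes were compared by where their peaks lay. None of its 4 peaks was within 1 kb of a listed start of its own, while 10 of the 13 other genes had such a peak and 3, MAML3 among them, did not. Over the 13 genes, 12 of the 39 counted peaks were at the gene's own start and 11 at the start of another gene only (neighbouring genes share some peaks). The 13 genes had a median length of 17.9 kb, and 1 was longer than PITPNM2. Over the whole list, 880 of 1484 peaks (59.3%) were within 1 kb of a listed coding start, chromosome 8 left out.

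**Figure D4:**
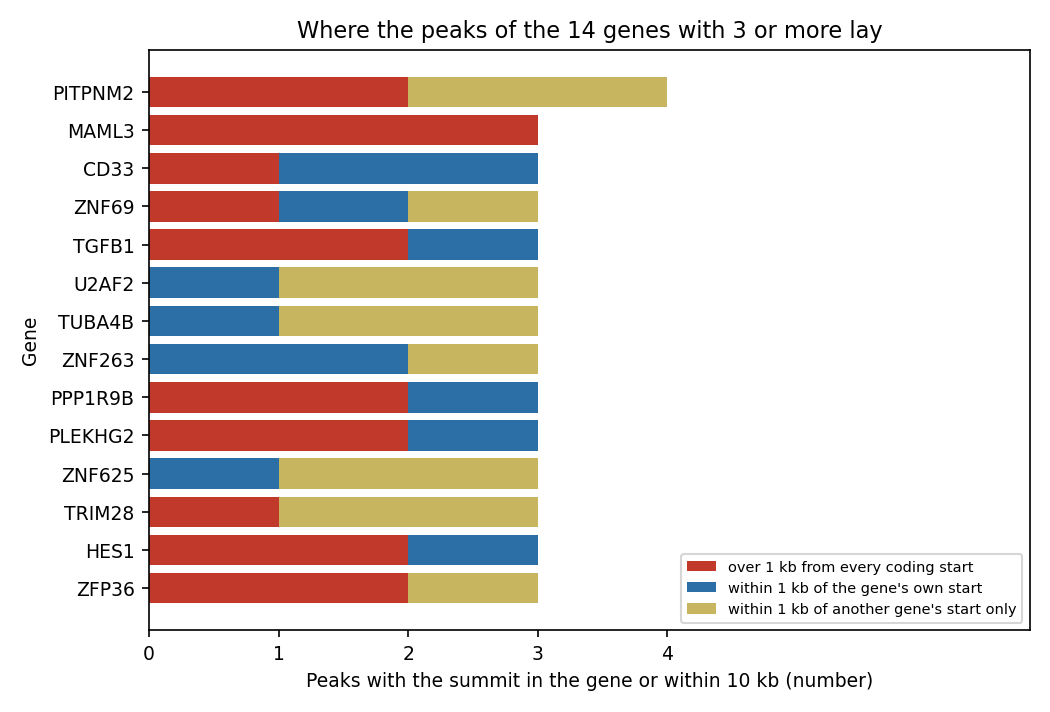
Number of peaks with the summit in the gene or within 10 kb, for the 14 coding genes with 3 or more, split by colour into peaks over 1 kb from every listed coding start, within 1 kb of the gene's own start, and within 1 kb of another gene's start only. PITPNM2 at the top has 4, of which 2 are away from starts, 2 at starts of other genes and 0 at its own.

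Of the 13 other genes with 3 or more peaks, 6 were taken as most like PITPNM2. They had most peaks inside the gene and over 1 kb from its ends, ties going to the length closest to that of PITPNM2. These were MAML3, CD33, ZNF69, TGFB1, U2AF2 and TUBA4B, with 3, 2, 1, 1, 0 and 0 such peaks against 2 in PITPNM2. MAML3, which encodes a coactivator of Notch signalling, was the nearest in form. Its 3 peaks all lay inside the gene, which is 437 kb long, with folds of 3.59, 4.39 and 5.61, and none was at a listed start. The strongest was 2625 bp from its start. CD33, a myeloid surface receptor gene, is shorter at 28.9 kb, and of its peaks (folds 3.85, 4.22 and 4.68) 2 were within 1 kb of its start. TGFB1, which encodes a cytokine that restrains growth of many cell types, had 1 peak at its start (fold 4.36), 1 inside (3.90) and 1 beyond its end (6.97). ZNF69, a zinc finger gene, had folds of 3.51 to 4.24 on backgrounds of 9.38 to 13.4 fragments, above those of PITPNM2. U2AF2, a splicing factor gene, and TUBA4B, a tubulin gene, each had 1 peak at their own start and 2 at starts of other genes, where PITPNM2 had 0 and 2.

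The neighbours of PITPNM2 were then examined. Of the 12 coding genes within 250 kb, 6 had a summit within 1 kb of a listed start, where 1013 of 15811 coding genes with listed starts (6.41%) did. ARL6IP4, OGFOD2 and ABCB9 account for 3 of the 6 through the peaks already counted for PITPNM2, so they are not independent of its choice. Of the other 9 genes, 3 had such a summit. VPS37B, which encodes a subunit of the ESCRT-I sorting complex, had one 17 bp from its start with a fold of 4.59. SBNO1, a homologue of Drosophila strawberry notch, had one at 201 bp with a fold of 5.51. KMT5A, which encodes the histone H4 lysine methyltransferase SET8, had one at 393 bp with a fold of 8.79, above all 4 peaks of PITPNM2. MPHOSPH9, whose gene ends 476 bp from the upper end of PITPNM2, had its listed start 126 kb from any summit. MTRFR, CDK2AP1, HIP1R, CCDC62 and DENR had theirs 60.7 to 143 kb from one.

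By the 10 kb measure, other genes of phosphoinositide synthesis, lipid transfer and membrane contacts had peaks about as often as all genes. Of 62 such genes 5 (8.06%) had a summit inside or within 10 kb, against 9.58% of all coding genes. PLCB3, a phospholipase C that breaks down phosphoinositides, had 2, of fold 5.62 and 4.20, 792 and 73 bp outside the gene, and the stronger was 287 bp from a start of GPR137. ESYT2, a lipid transfer protein of the same membrane contacts, had 1 of fold 4.98 that lay 332 bp from its start. SEC14L1, of the SEC14-like lipid-binding family, had 1 of fold 3.79 at 211 bp from its start. PTK2B, which encodes the kinase PYK2 that gave the Nir proteins their name as its binding partners, had 1 of fold 3.64 inside the gene, 0.564 kb from an end. SYNJ2, a phosphoinositide phosphatase, had 1 of fold 3.54 inside the gene, 45.5 kb from an end and 9.72 kb from a listed SYNJ2 start.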

How the data were processed

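AM-tag ChIP-seq of F36P cells was analysed from 1 deposited, headerless list of MACS2 narrow peaks. Per the submitters' processing notes, Bowtie2, MACS2 and deepTools were used with hg38; the sources used here give no versions, settings or control library. Each peak's deposited values, made by the authors, are the fold (ratio) over local background, a score, −log10 of its p-value and of its q-value, and where its summit is. The largest q-value in the authors' deposited table was 0.0474. Read depth is unknown.

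Pileup and background at each summit were recovered from the p (a Poisson tail) and the fold, which adds 1 to pileup and background before dividing. All 1645 peaks had exactly 1 solution within 0.001 in log10 p (largest error 0.000834). Recovery and counting were tested on simulated data. Genes and starts came from RefSeq on GRCh38.p14. Exons were not used here, nor starts on chromosome 8. Of 66 listed lipid genes 65 were matched, and the 3 PITPNM genes were counted apart.

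Genes were named by a rule: the 3 PITPNM genes, the 12 coding genes within 250 kb, up to 6 genes of 3 or more peaks with most inside the gene, and the lipid genes with a peak. A gene that also met a count given in the closing section is not reported here. The members and lists were chosen with earlier results of these data known. No test was run, as groups have 1 library each and the gene was chosen by its count. Alternatives covered the window, the threshold and how peaks are assigned. Computations used matplotlib 3.10.9, SciPy 1.17.1, pandas 2.3.3 and numpy 2.4.6 under Python 3.11.15.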

Additional observations from a re-analysis of the deposited data

How the results depend on the processing

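No paired analysis was possible because the result comes from no test and there is 1 library per group. PITPNM1 and PITPNM3 had 0 peaks in all 7 alternatives. Only the 50 kb window and overlap of the peak interval could have raised that count. The others narrow the window or drop peaks, so their 0 was fixed in advance. With summits inside the gene only, PITPNM2 had 2 peaks (median fold 6.37) and 28 genes had at least as many. By that count 999 of the 19970 coding genes and 3 of the 62 lipid genes had a peak, fewer as a narrower window implies. PITPNM2 had 3 peaks with a window of 5 kb, where 7 genes, itself included, had at least as many. At 50 kb it had 4, and 39 genes had at least as many. In the upper 50% of peaks by significance it had 3, and 4 genes had at least as many. With noncoding genes included, 28 of the 59094 annotated genes, PITPNM2 among them, had at least as many peaks by the 10 kb measure. This is not the count of 28 coding genes with summits inside. Per 100 kb, 1032 of the 19970 coding genes had at least as many. With 50 kb 3537 of the 19970 coding genes and 18 of the 62 lipid genes had a peak. In the upper 50% by significance 999 and 1 of them did. The lipid share was thus above that of coding genes at 50 kb and below it in the upper 50%, a difference that was not tested. At q below 0.001, 3 of the 62 lipid genes and 1633 of the 19970 coding genes had a peak. The next 3 settings were chosen after seeing the data. With each peak given to the nearest listed coding start, PITPNM2 had 1 peak and 1244 genes had at least as many. Without peaks at starts of other coding genes it had 2, and 56 genes had at least as many. CCGGAA was in 21.2% of windows of coding genes. Among the planned settings, with q below 0.001, overlap of the peak interval in place of the summit, or without the 208 peaks on raised background, PITPNM2 had 4 peaks and 1 gene, itself, had as many. The q and background settings only drop peaks, none of them among these 4, so they could not change this. The 4 peaks of PITPNM2 rest on pileups of 13 to 29 fragments, so their order by fold is not settled at this depth.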

Other observations

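Of the 19970 coding genes, 28 (0.14%) had at least 2 summits inside the gene. In 6 of them at least 2 of these summits were over 1 kb from every listed coding start and every coding gene end. On chromosome 8, where PLEC lies, ends alone were used. Among the 6 were MAML3 with 3, and PITPNM2, PLEC, PTPN6 and VASP with 2 each. These names were chosen after their values were seen. The folds of these peaks were 7.94 and 4.79 in PITPNM2, and 9.10 and 3.32 in PTPN6, which encodes the phosphatase SHP-1. They were 5.60 and 5.51 in PLEC, which encodes the cytoskeletal linker plectin, and 5.0 and 4.29 in VASP, which encodes an actin regulator. Of the 28 genes with at least 2 summits inside, 5 are longer than PITPNM2. Peaks of this position made up 135 of 1484 (9.10%), chromosome 8 left out, with a median fold of 4.82, the same as that of the 880 at listed coding starts.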
